A study of Arabidopsis thaliana with 9 samples.

Results

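Nuclear photosynthesis genes were followed in seedlings of Arabidopsis thaliana that lack normal function of SCARECROW or SHORT-ROOT, 2 transcription factors of the GRAS family best known for patterning the root. The set was fixed by locus code and holds 42 nuclear genes in 7 groups: the light-harvesting antennae of photosystem I (4 genes) and photosystem II (5), photosystem I (11), photosystem II (10), electron transport (6), ATP synthase (2) and the Calvin cycle (4). Of the 20777 loci in the table, 38 were members. LHCA2, LHCB2.1, LHCB3 and PSBX were not analysed here. Total RNA came from Col-0 seedlings at growth stage 1.04, of which the vegetative part was taken, grown on MS medium at 22 °C with 16 h of light and 8 h of dark, and was hybridised to ATH1 arrays. The 9 arrays were 3 biological repeats each of the wild type (WT), the mutant scr-3 (here scr) and the mutant shr-5 (here shr). Each mutant was represented by 1 allele.

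In photosynthesis, antenna proteins pass light energy to 2 photosystems, which drive electrons from water to ferredoxin through the cytochrome complex and plastocyanin. The proton gradient that results powers ATP synthase, and the ATP and NADPH are spent in the Calvin cycle to fix carbon dioxide. The core subunits of both photosystems are encoded in the plastid, while the antennae and many peripheral subunits are nuclear genes, imported as proteins and known to be induced by light and by chloroplast development.

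The arrays bear on the genotypes and the tissue as follows. SHR had levels of 6.61, 6.57 and 6.81 in WT and 4.70, 4.73 and 4.89 in shr, a change of -1.89 on the log2 scale (limma adjusted p = 2.87e-05). SCR had -0.57 in scr against WT (limma adjusted p = 0.110) and -0.51 in shr against WT (limma adjusted p = 0.0399). The SCR transcript thus does not settle the scr label. The 10 root markers had signals of 3.77 to 6.34 and the 4 flower markers of 3.26 to 4.35, in a table that runs from 2.90 to 14.03. Signals of different probe sets cannot be set against each other, so these values do not measure how much of either organ was present. The array of shr replicate 3 stood apart, with r = 0.970 to 0.979 to the other 8 arrays, which correlated among themselves at 0.983 to 0.997 across loci. Over all loci 76 passed in scr and 1691 in shr (904 higher, 787 lower). Without shr replicate 3 these counts were 595 and 2643, and over the fits without 1 array they ranged from 17 to 595 and from 654 to 2643. Once all arrays had been set to one median, 687 loci were higher and 1279 lower in shr.

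**Figure D1:**
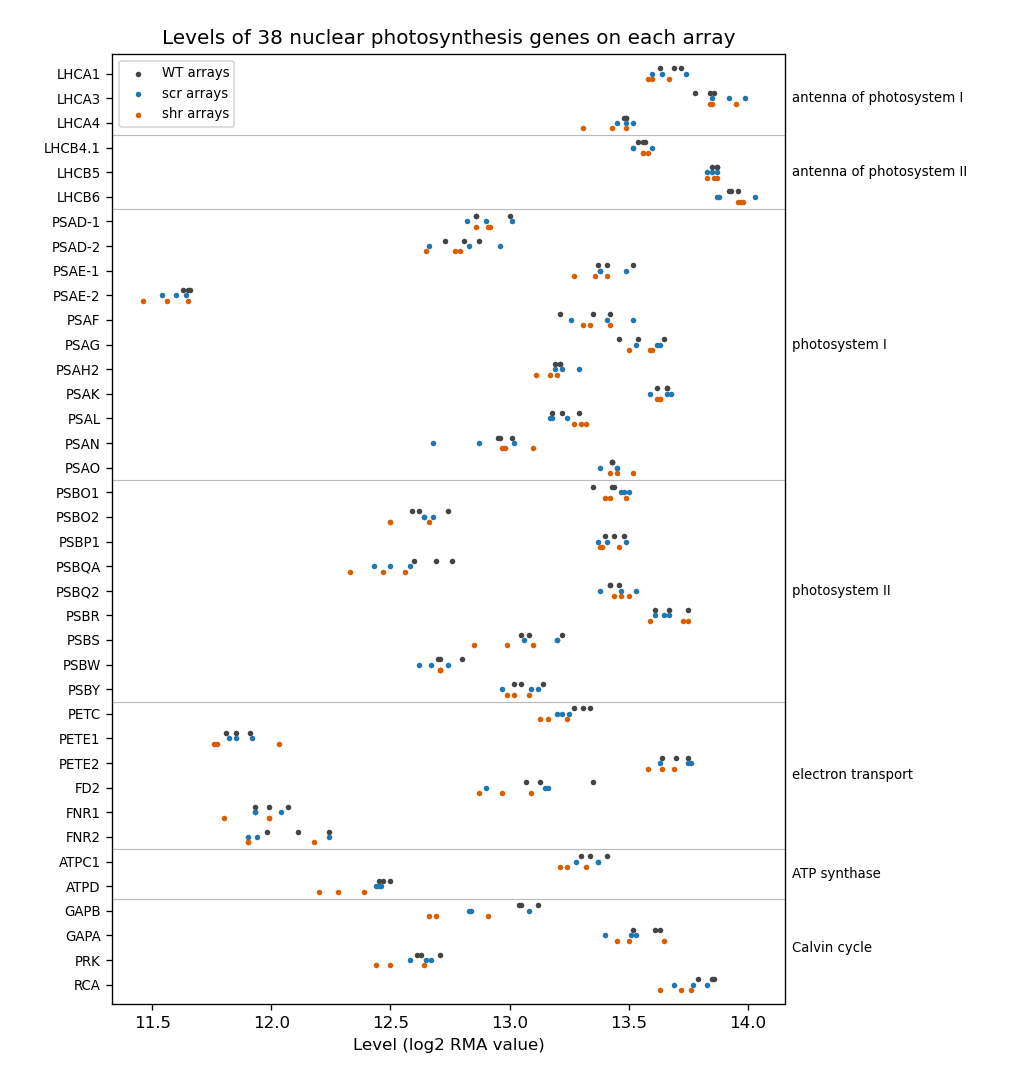
Level of each of the 38 measured nuclear photosynthesis genes (rows, grouped by complex) on each of the 9 arrays, as the deposited log2 RMA value. Points are single arrays, coloured by genotype; within a gene the 3 genotypes lie close together, and all values fall between 11.46 and 14.03.

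None of the 38 nuclear photosynthesis genes passed the threshold in either mutant, and the changes were small. In scr against WT the 38 values ran from -0.18 for PSBQA to 0.093 for LHCA3, with a median of -0.012. In shr against WT they ran from -0.31 for GAPB to 0.069 for PSAL, with a median of -0.049. The lowest adjusted p was 0.502 in scr and 0.0824 in shr (limma over all loci, 3 against 3 arrays).

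These counts of 0 are read against those of the whole table. Of all 20777 loci, 0.366% passed in scr and 8.14% in shr (adjusted p under 0.05). At an unadjusted p under 0.05, 0 of the 38 members differed in scr, where 11% of all loci did (5.28% higher and 5.71% lower). In shr 3 of 38 were lower and 0 higher, where 12.2% and 12.4% of all loci were. The median change of all loci was 0.005 in scr and -0.012 in shr. In shr 27 of 38 members (71.1%) had values below 0, against 52.5% of all loci, and in scr 26 of 38 (68.4%), against 48.5%. Once all arrays had been set to one median, which moved the median of all loci to -0.074 in shr and -0.014 in scr, these counts were 37 and 30 of 38. The share of all loci below 0 at that setting is not given, so these shifted counts have no baseline.

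The precision allows a bound on the change in the deposited signal of each gene. The 95% interval of limma's moderated fit, not adjusted for the number of genes, had a median half-width of 0.161 for the members and 0.235 for all loci. It lay wholly within a 1.5-fold change for 38 of 38 members in both mutants, as it did for 84.5% of all loci in scr and 76.5% in shr. Within the narrower bound of 1.25-fold lay 33 of 38 members in scr and 32 of 38 in shr, against 43.6% and 35.2% of all loci. The widest interval was that of FNR2, with a half-width of 0.275.

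**Figure D2:**
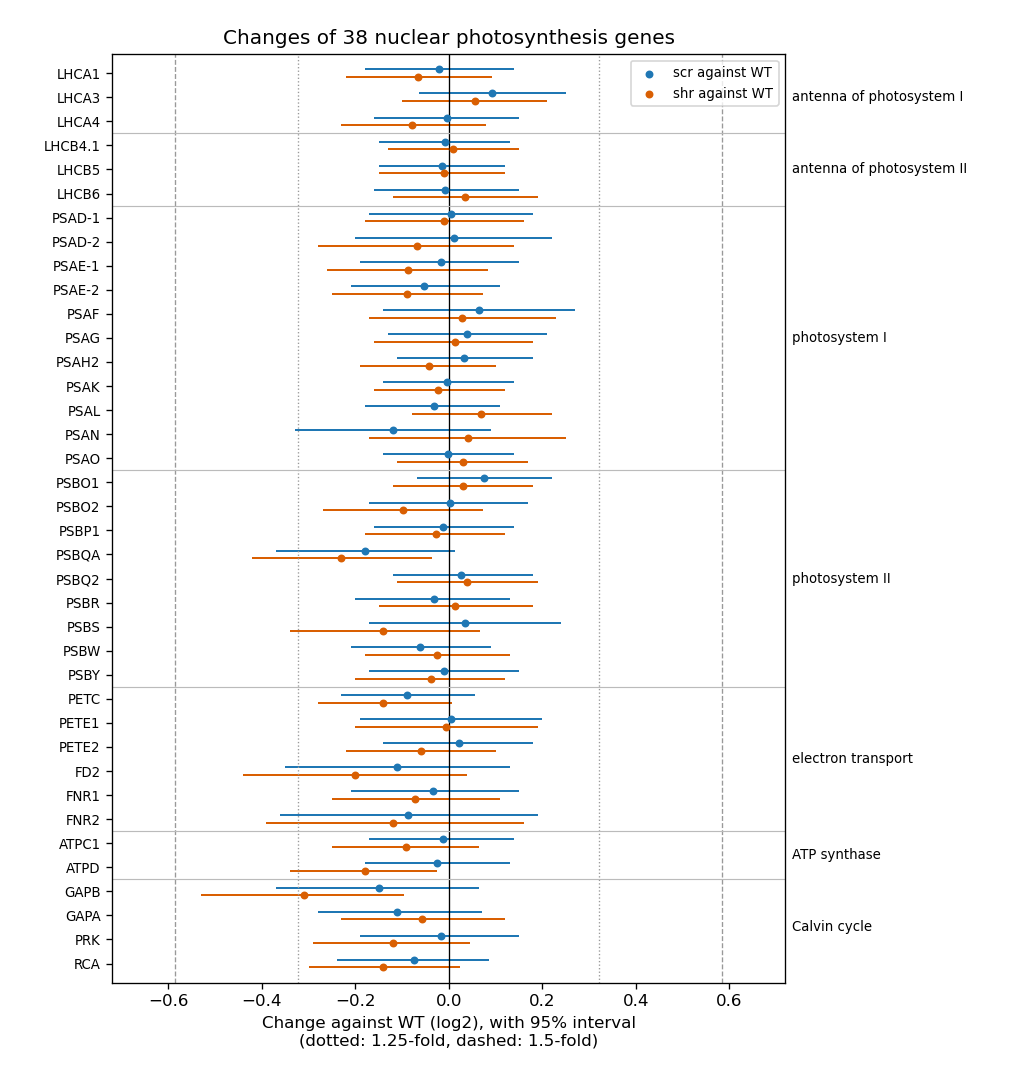
Change against WT (log2) of each measured member in scr and in shr, with the unadjusted 95% interval of limma's fit over 9 arrays. Dotted and dashed lines mark changes of 1.25-fold and 1.5-fold; no interval reaches the dashed lines, and the lowest point is GAPB in shr at -0.31.

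The members all lay among the 324 loci with a mean signal of 11.60 or more, near the top of the range of the arrays. Signals of different probe sets do not order the genes by transcript number. These 324 loci were a group chosen after the values had been seen. Of them, 10.2% passed in shr (34.9% at an unadjusted p under 0.05) and 0.309% in scr. Their median signal was 12.19, against 13.28 for the members. These shares thus do not show how often loci as bright as most members are called. The median SD within a genotype was 0.0616 for the members and 0.0855 for the 324 loci, against 0.13 for all loci. Whether signals so high still rise in proportion to transcript number was not tested. Members held 16 of the 20 and 25 of the 50 highest mean signals. Quantile normalisation, where used, gives the highest ranks the same values on every array. The intervals thus bound the normalised signal. How much of a joint change of the members was removed was not tested. In RNA of whole organs, fewer photosynthetic cells and less RNA per cell cannot be told apart.

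**Figure D3:**
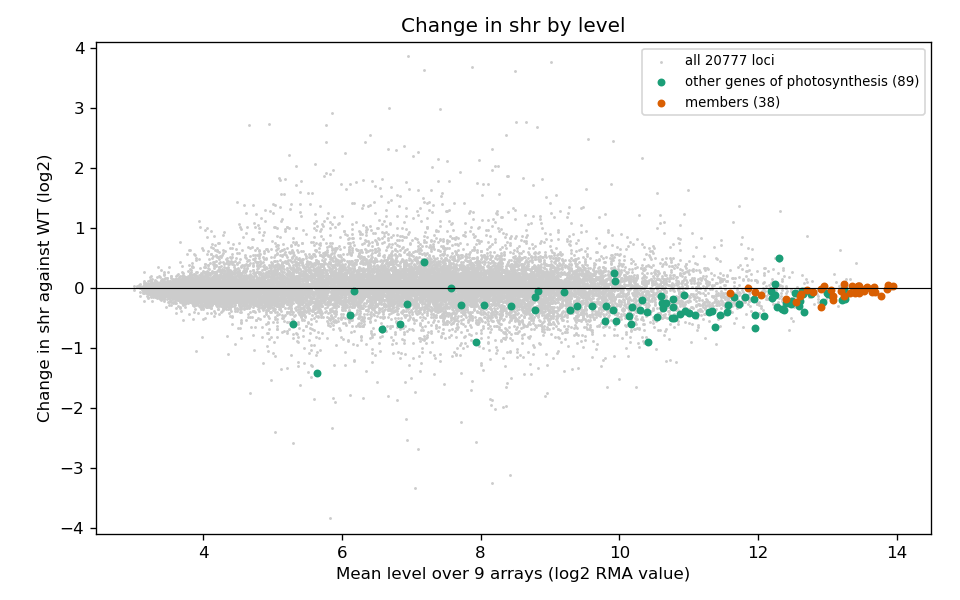
Change in shr against WT (log2) of all 20777 loci against their mean level over the 9 arrays (log2 RMA value), with the 38 members and 89 other genes of photosynthesis marked. The members lie at the right end close to 0, and 84 of the 89 other genes lie below 0, where 52.5% of all loci do.

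The 6 antenna members analysed differed little from WT, and 0 of 6 passed in either mutant. LHCA2, LHCB2.1 and LHCB3 were not among them, and CAB1, CAB2, CAB3, LHB1B1 and LHB1B2, genes of the LHCB1 type, were not analysed here. The measured LHCA and LHCB genes outside the set ran in shr from -0.41 (LHCA6) to -0.019 (LHCB4.2), and LHCA5 passed at -0.38. The median change of the members in shr was -0.065 for the antenna of photosystem I and 0.008 for that of photosystem II. The latter rests on LHCB4.1, LHCB5 and LHCB6 alone. LHCA and LHCB proteins bind chlorophyll and feed photosystem I and photosystem II. For LHCA4 (AT3G47470) the levels were 13.49, 13.48 and 13.49 in WT, 13.45, 13.49 and 13.52 in scr, and 13.49, 13.43 and 13.31 in shr. Only shr replicate 3 lay clearly below the others, and the change in shr was -0.078 (95% interval -0.23 to 0.079). LHCA3 (AT1G61520) was the highest of this antenna in shr, at 0.055 (-0.10 to 0.21). For LHCB6 (AT1G15820), a minor antenna protein, the levels were 13.92, 13.93 and 13.96 in WT, 13.88, 14.03 and 13.87 in scr, and 13.98, 13.96 and 13.97 in shr. Its shr arrays all lay above the WT arrays, by a mean of 0.035, the only member higher without overlap, where 14.3% of all loci were. LHCB5 (AT4G10340), at -0.011 (-0.15 to 0.12), and LHCB4.1 (AT5G01530), at 0.008 (-0.13 to 0.15), differed little in shr.

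Photosystem I subunits had a median of -0.0011 in scr and -0.0093 in shr over 11 genes, and 0 passed. PSAD and PSAE proteins dock ferredoxin on the stromal side, PSAF and PSAN lie on the lumenal side, and PSAL, PSAH and PSAO form the side where antenna of photosystem II can bind. PSAE-2 (AT2G20260) had the lowest value of this group in shr, with levels of 11.63, 11.66 and 11.65 in WT, 11.54, 11.60 and 11.64 in scr, and 11.56, 11.65 and 11.46 in shr. The groups overlapped, and the change in shr was -0.089 (SE 0.0714, limma adjusted p = 0.492). PSAL (AT4G12800) had the highest, with levels of 13.22, 13.29 and 13.18 in WT, 13.17, 13.18 and 13.24 in scr, and 13.30, 13.27 and 13.32 in shr. Its shr arrays overlapped with WT and lay above all scr arrays. The other 9 genes of photosystem I lay between -0.087 and 0.041 in shr.

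Photosystem II subunits had a median of -0.01 in scr and -0.028 in shr over 9 measured genes, and 0 passed. PSBO, PSBP and PSBQ form the extrinsic part that steadies the oxygen-evolving cluster, and PSBS acts in the release of excess light energy as heat. PSBQA (AT4G21280) stood lowest in both mutants. Its levels were 12.69, 12.76 and 12.60 in WT, 12.43, 12.58 and 12.50 in scr, and 12.56, 12.33 and 12.47 in shr. All mutant arrays lay below all WT arrays, with values of -0.18 (95% interval -0.37 to 0.014) in scr and -0.23 (-0.42 to -0.037) in shr, neither past the threshold (limma adjusted p = 0.502 and 0.138). PSBQ2 (AT4G05180), which encodes the same type of subunit, had levels of 13.46, 13.42 and 13.42 in WT, 13.38, 13.47 and 13.53 in scr, and 13.47, 13.50 and 13.44 in shr, and these overlapped. PSBS (AT1G44575) had a value of -0.14 in shr (-0.34 to 0.066), and the other 6 genes lay between -0.097 and 0.03.

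Electron transport genes were all below 0 in shr, where 52.5% of all loci were. Their median was -0.095 in shr over 6 genes, against -0.061 in scr. FD2 (AT1G60950) encodes the main leaf ferredoxin. It had levels of 13.07, 13.35 and 13.13 in WT, 12.90, 13.15 and 13.16 in scr, and 13.09, 12.97 and 12.87 in shr. The spread between the WT arrays of FD2 (SD 0.147) was large beside its change in shr of -0.20 (SE 0.107, limma adjusted p = 0.286). PETE1 (AT1G76100), a plastocyanin gene, had the highest value of the group in shr, -0.007 (-0.20 to 0.19). PETC (AT4G03280), the Rieske iron-sulfur protein of the cytochrome complex, had levels of 13.27, 13.31 and 13.34 in WT, 13.25, 13.20 and 13.22 in scr, and 13.24, 13.16 and 13.13 in shr. Both mutants lay below WT without overlap, at -0.089 (limma adjusted p = 0.697) and -0.14 (limma adjusted p = 0.227).

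Both ATP synthase genes, for subunits of the part that makes ATP, were below 0 in shr, as were 52.5% of all loci. ATPD (AT4G09650), the delta subunit, had levels of 12.50, 12.45 and 12.47 in WT, 12.45, 12.44 and 12.46 in scr, and 12.39, 12.28 and 12.20 in shr. The shr arrays of ATPD lay below all WT and all scr arrays, with a change of -0.18 against WT (SE 0.0697, limma adjusted p = 0.147), or 88.1% of the WT level. ATPC1 (AT4G04640), the gamma subunit, had levels of 13.30, 13.34 and 13.41 in WT, 13.37, 13.37 and 13.28 in scr, and 13.24, 13.32 and 13.21 in shr. These overlapped, with a change of -0.091 (95% interval -0.25 to 0.065).

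The Calvin cycle genes had a median of -0.091 in scr and -0.13 in shr over 4 genes, and 0 passed. GAPA and GAPB encode the 2 kinds of subunit of the plastid glyceraldehyde-3-phosphate dehydrogenase, PRK phosphoribulokinase, and RCA the chaperone that keeps Rubisco active. GAPB (AT1G42970) had the lowest value of all members in shr. Its levels were 13.12, 13.04 and 13.05 in WT, 13.08, 12.83 and 12.84 in scr, and 12.91, 12.66 and 12.69 in shr. All shr arrays lay below all WT arrays, and the change of -0.31 (SE 0.0962, 95% interval -0.53 to -0.096) put GAPB at 80.5% of WT, short of the threshold (limma adjusted p = 0.0824). Without shr replicate 1 the change of GAPB was -0.39 (limma adjusted p = 0.0430), and once all arrays had been set to one median it was -0.38 (limma adjusted p = 0.0347), so 1 of 38 members passed in these fits. Leaving out each of the 9 arrays in turn gave adjusted p-values of 0.0430 to 0.198 for GAPB. RCA (AT2G39730) had levels of 13.79, 13.86 and 13.85 in WT, 13.83, 13.77 and 13.69 in scr, and 13.76, 13.72 and 13.63 in shr. Its shr arrays lay below WT, at -0.14 (SE 0.0708, limma adjusted p = 0.279), while PRK (AT1G32060) at -0.12 overlapped with WT.

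In all, 5 of 38 members lay below WT without overlap in shr, namely PSBQA, PETC, ATPD, GAPB and RCA, where 15.1% of all loci did. In scr PSBQA and PETC lay below WT and PSBO1 above it without overlap, where 10.6% and 11.5% of all loci did. As a share of 38, none of these counts exceeded that of the whole table. PETC, RCA and PSBO1 were named for this after their values had been seen.

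Set side by side, the complexes differed in shr by small amounts, with the lowest means in electron transport, ATP synthase and the Calvin cycle. The mean over genes of the difference from WT was 0.0054, 0.016 and 0.011 on the 3 shr arrays for the antenna of photosystem II and -0.021, -0.045 and -0.022 for the antenna of photosystem I. It was -0.01, -0.01 and -0.017 for photosystem I and -0.0092, -0.084 and -0.064 for photosystem II. These 4 groups differed from WT by less than 0.09 on every shr array. For electron transport it was -0.087, -0.14 and -0.076, for ATP synthase -0.095, -0.11 and -0.21, and for the Calvin cycle -0.046, -0.20 and -0.22. These 3 groups lay below all WT arrays, whose means ranged from -0.037 to 0.049 over them, and so did photosystem I and its antenna. In scr the means of all 7 groups overlapped with WT. Over all 38 members the mean was -0.03, -0.074 and -0.067 in shr, -0.044, -0.026 and 0.00099 in scr, and -0.0027, 0.011 and -0.0083 in WT. The members and groups were chosen with earlier results known, so these means carry no test. The direction of small values depends on the scale. Setting all arrays to one median moves the median of all loci in shr to -0.074 and that of the antenna of photosystem II from 0.008 to -0.054.

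**Figure D4:**
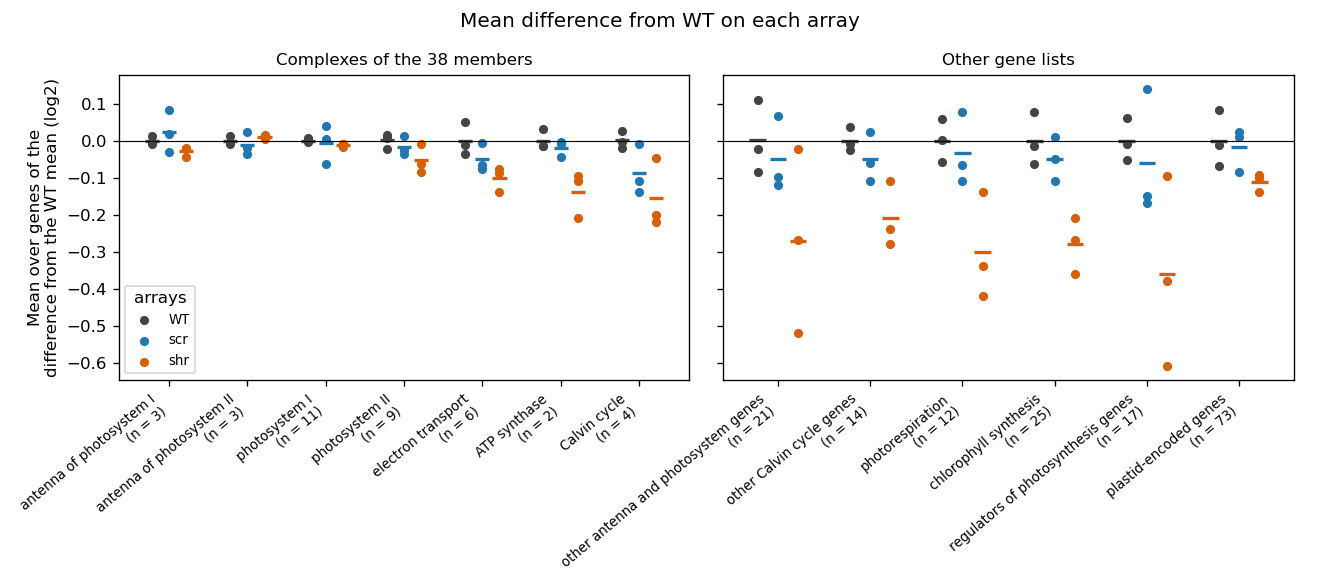
Mean over the genes of a group of the difference from the WT mean (log2), for each array (points) with the mean of 3 arrays (bars), in the 7 groups of members (left) and in 6 other lists (right). On the left the shr means fall no lower than -0.22; on the right shr arrays reach -0.61 for the regulators.

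Paralogs were compared by their changes, since signals of 2 probe sets cannot be set against each other. The difference between both genes of a pair was taken within each array and compared between genotypes by an exact two-sided permutation test, in 14 tests on 7 pairs. With 3 against 3 arrays the smallest p is 0.1, so no test could pass 0.05. The change of PSBQA minus that of PSBQ2 was -0.21 in scr and -0.27 in shr, without overlap (exact p = 0.1, adjusted p = 0.467 in each). The change of GAPA minus that of GAPB was 0.26 in shr, without overlap (exact p = 0.1, adjusted p = 0.467), with a range of 0.24 to 0.28 over the fits without 1 array. In scr GAPA and GAPB differed by 0.045 and overlapped. GAPA-2 (AT1G12900), from the list of further Calvin cycle genes, was not part of these pairs. Its levels were 13.30, 13.31 and 13.23 in WT and 13.19, 13.12 and 12.96 in shr. The change of GAPA-2 was -0.19 in shr (limma adjusted p = 0.152) and -0.017 in scr, where it overlapped with WT. In shr GAPA-2 thus lay below WT without overlap, as GAPB did, while GAPA overlapped. The pairs PSAD-1 and PSAD-2, PSAE-1 and PSAE-2, PSBO1 and PSBO2, PETE1 and PETE2, and FNR1 and FNR2 overlapped in both mutants, with differences of -0.016 to 0.13. Whether probes of one paralog also bind transcripts of the other was not tested.

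**Figure D5:**
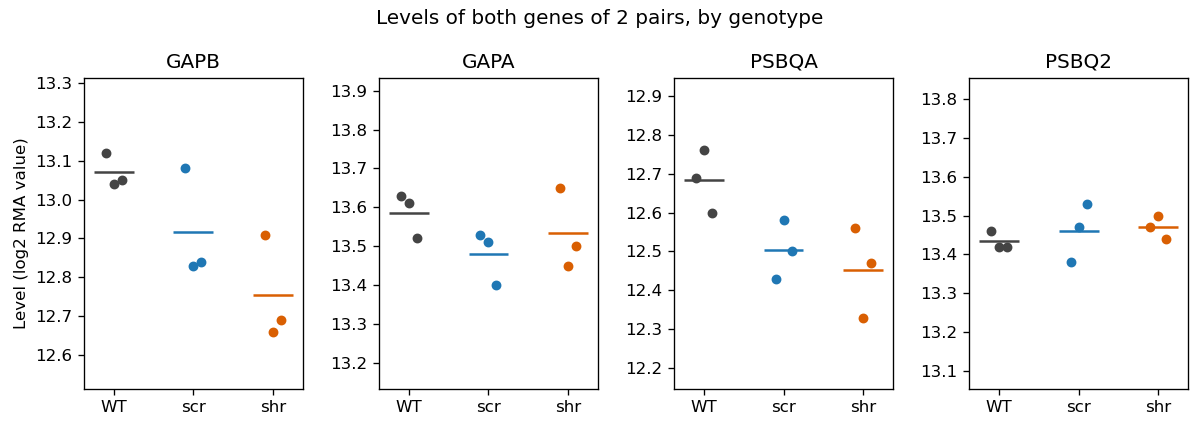
Levels (log2 RMA value) of GAPB, GAPA, PSBQA and PSBQ2 on each array by genotype, with the mean of 3 arrays as a bar; every panel spans the same range of 0.8 log2 units, and no axis starts at 0. The shr arrays of GAPB and PSBQA lie below all WT arrays, those of GAPA and PSBQ2 overlap with WT. GAPA-2 is not shown.

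Some other genes of photosynthesis passed the threshold in shr. The 5 lists of them cover chlorophyll synthesis, further antenna and photosystem genes, further Calvin cycle genes, photorespiration and regulators, with 89 of 102 genes measured. The listed LHCB1 and RBCS genes were among those not measured. In shr 15 of the 89 fell and 0 rose, where 3.79% of all loci fell and 4.35% rose. Their median change was -0.29, and 84 of 89 values were below 0, where 52.5% of all loci were. Without overlap, 43 of 89 lay below WT, where 15.1% of all loci did. In scr 0 of 89 passed, and 4 at an unadjusted p under 0.05, where 0.366% and 11% of all loci did. Their median in scr was -0.059. The count of falls in shr was 3, 2 or 7 without WT replicate 1, 2 or 3, 9 without scr replicate 1, and 24, 4 or 16 without shr replicate 1, 2 or 3. It was 4 in a fit of the 2 genotypes alone and 26 once all arrays had been set to one median. With the repeat number as a block 15 fell and 1 rose, PORB. No test compares these lists with the members. Signal level differed as well: the 15 called genes had WT means of 8.90 (STN8) to 12.48 (CHLI1). The median level of the members over the 9 arrays was 13.28. The part of signal level in this contrast was not tested.

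Of the chlorophyll synthesis genes 5 of 25 fell in shr, and 24 of 25 had values below 0, with a median of -0.30. Among all loci 3.79% fell and 52.5% had values below 0. HEME2, a uroporphyrinogen decarboxylase gene, had levels of 11.18, 11.24 and 11.09 in WT, 10.97, 11.08 and 11.16 in scr, and 10.81, 10.68 and 10.75 in shr. All shr arrays lay below all others, and HEME2 fell by 0.42 (SE 0.0783, limma adjusted p = 0.0142). HEMC, the porphobilinogen deaminase gene, fell by 0.44, PCB2, a divinyl reductase gene, by 0.55, and CHLI1, a magnesium chelatase subunit gene, by 0.36. GSA2, a glutamate-1-semialdehyde aminotransferase gene named after its value had been seen, fell by 0.31. The list had 0 of 25 past the threshold in scr, where PORB had the highest value, 0.30, and PORA the lowest, -0.62. Both encode protochlorophyllide oxidoreductases. In shr PORB, the only gene of the list above 0, had 0.50 and PORA -0.68 (limma adjusted p = 0.312 and 0.144). With the repeat number as a block both passed in shr (limma adjusted p = 0.0441 and 0.0166).

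Among the further antenna and photosystem genes 3 of 21 fell in shr, where 3.79% of all loci fell. PSB28, a gene for an assembly factor of photosystem II, had levels of 10.85, 10.92 and 10.70 in WT, 10.53, 10.51 and 10.42 in scr, and 10.26, 9.90 and 9.61 in shr. The 3 genotypes did not overlap, and PSB28 fell by 0.90 in shr (SE 0.147, limma adjusted p = 0.00846), while the value in scr was -0.34 (limma adjusted p = 0.447). LHCA5, a minor antenna gene, fell by 0.38 and STN8, a kinase gene for photosystem II proteins, by 0.37. The Calvin cycle list had 2 falls among 14 genes, EMB3119, a ribose-5-phosphate isomerase gene, by 0.46 and AT1G56190 by 0.43.

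Of the photorespiration genes 12 of 12 had values below 0 in shr, with a median of -0.32, and 2 fell. These were both plastid dicarboxylate transporter genes of the pathway, DIT1 by 0.45 and DIT2 by 0.37. Among all loci 52.5% had values below 0 and 3.79% fell. Among the 17 regulators, SIG2 and SIG6, sigma factors of the plastid RNA polymerase, fell by 0.55 and 0.36, and GUN1, a gene of plastid-to-nucleus signalling, fell by 0.33. SIG2 had levels of 9.90, 10.18 and 10.01 in WT, 9.82, 9.96 and 9.80 in scr, and 9.47, 9.44 and 9.54 in shr. Its shr arrays lay below all others (SE 0.0893, limma adjusted p = 0.00827). GLK1 and GLK2, activators of antenna and chlorophyll genes, had values of 0.25 (limma adjusted p = 0.472) and -0.47 (limma adjusted p = 0.0876).

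In the chlorophyll breakdown list PPH, the pheophytinase gene, rose by 0.44 in shr and NAC6, a senescence regulator also known as ORE1, fell by 1.80 (SE 0.31, limma adjusted p = 0.0108), as 2 of 6 genes. Of all loci 4.35% rose and 3.79% fell. The levels of NAC6 were 7.25, 7.09 and 7.50 in WT, 7.20, 7.27 and 7.17 in scr, and 5.86, 5.98 and 4.61 in shr. The shr arrays lay below all others, shr replicate 3 furthest. Of the 21 genes of all fixed lists called in shr, markers of other tissues included, NAC6, PSB28 and SIG2 kept the call whichever of the 9 arrays was omitted. The other 18 lost the call in at least 1 of these fits, with an adjusted p of up to 0.153.

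Some markers of other cell types passed in shr. The vascular list had 5 of 5 values above 0 and 2 rose, where 4.35% of all loci rose and 52.5% had values below 0. SUC2, a phloem sucrose transporter gene, rose by 0.49 and CESA7, a secondary wall cellulose synthase gene, by 0.42. Neither passed once all arrays had been set to one median (limma adjusted p = 0.0532 and 0.0679). The mean difference of this list from WT ranged from 0.32 to 0.40 in shr and from 0.057 to 0.26 in scr, against -0.014 to 0.022 for WT itself. In the epidermis and guard cell list 2 of 7 fell in shr, SPCH by 0.69 and MYB60 by 0.48, genes of stomatal lineage entry and of guard cells, where 3.79% of all loci fell. The epidermal markers of that list did not pass, with values of 0.033 for ATML1, 0.075 for KCS10 and -0.072 for PDF1. That list's mean was -0.047 to 0.047 in WT and -0.32 to -0.17 in shr. Their part in the values of the photosynthesis genes was not tested.

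Harvest time is not given in the labels, and clock genes varied within genotypes. CCA1, a morning gene of the clock, had levels of 9.33, 8.69 and 8.99 in WT, 9.40, 8.66 and 8.11 in scr, and 8.92, 8.11 and 6.51 in shr. LHY, its partner, had 9.51, 8.58 and 8.95 in WT, 9.64, 8.48 and 7.72 in scr, and 9.43, 7.55 and 6.87 in shr. Replicate 3 was the lowest array of both mutants for both genes. For PRR5, PRR7, TOC1 and GI it was the highest array of both mutants, and for ELF4 that of scr only. None of 7 measured clock genes passed in either mutant (0 at an unadjusted p under 0.05), with a median interval half-width of 0.999. Their part in the values of the photosynthesis genes was not tested.

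Plastid-encoded genes had a median of -0.012 in scr and -0.065 in shr over 73 loci, of which 0 passed in scr and 3 fell in shr (ATCG00050, ATCG00660 and ATCG00020, named after their values had been seen), where 3.79% of all loci fell. Their mean difference from WT was -0.10, -0.092 and -0.14 on the shr arrays, below all WT and scr arrays.

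Between the mutants, 0 of 38 members passed in shr against scr, where 1.34% of all loci did, and 0 at an unadjusted p under 0.05, where 16.7% of all loci did. For all loci, 0.765% were higher and 0.578% lower at the adjusted threshold, and 8.45% and 8.24% at the unadjusted one. The values ran from -0.17 for PSBS to 0.16 for PSAN, with a median of -0.037, and the 95% interval lay within a 1.5-fold change for 38 of 38, against 80.5% of all loci, and within 1.25-fold for 34 of 38, against 40%. ATPD lay lower and PSAL higher in shr than in scr without overlap, where 10.8% and 10.2% of all loci did. Both comparisons with WT share the WT arrays.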

How the data were processed

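ATH1 arrays of 9 samples, 3 each of WT, scr-3 and shr-5, were grouped by sample title. The deposited values are log2 values, for which the submitters' processing notes name RMA. In its usual form RMA corrects background, normalises quantiles between arrays and summarises probe sets. Its version and settings are not stated in the labels. The log2 scale was read from the range of 2.90 to 14.03. Quantile normalisation, where used, removes differences of total signal between arrays. The number of arrays limits the precision.

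Changes came from 1 linear model on all 20777 loci and 9 arrays (R 4.3.3, limma 3.58.1, lmFit and eBayes, 6 residual and 2.99 prior degrees of freedom), with two-sided p-values adjusted over all loci (Benjamini-Hochberg) at a threshold of 0.05 and no filter. The labels call the repeats biological, without naming separate cultures, so p-values measure the spread between these samples. On simulated data for shr against WT, with 200 of 20777 loci changed 2-fold, 93.4% were recovered with 4.89% false calls. Recovery of changes as small as those of the members was not tested. In scr and WT, arrays of equal repeat number deviated together (correlations of 0.277, 0.138 and 0.107), which comes from the data and not the labels; in shr and WT they were 0.204, -0.106 and 0.0994, and in shr and scr 0.444, -0.0448 and 0.335.

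Members and gene lists were chosen with earlier results of these data known. Genes named were the members with the highest and lowest change per complex in shr, paralog pairs, and in other lists up to 4 called loci per direction, or the extremes where none passed. Many of these extremes, such as those of the root and flower markers, are not named in the text. Among genes named outside this rule were LHCB4.1, PSAN, PSBS, PRK, GAPA-2, GLK1, GLK2, LHY, PRR7, ELF4, ATML1, KCS10 and PDF1. Names came from a TAIR10.1 gene table, which matched 20508 loci. No sequences are shown. Alternatives were a common median for all arrays, leaving out the dimmest 40% of loci, the 2 genotypes alone, the repeat number as a block, a trended robust prior, and each array left out.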

Additional observations from a re-analysis of the deposited data

Results flagged for a closer look

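NAC6 and SIG6 differed between the mutants by the direct test of shr against scr. The change of NAC6, a senescence regulator, in shr minus that in scr was -1.73 (limma adjusted p = 0.0372), lower in 3 of 3 shr arrays than in any scr array. Over the 9 fits without 1 array its adjusted p was 0.00116 to 0.133, past the threshold in 3 of them. For SIG6, a plastid sigma factor gene, the same difference was -0.44 (limma adjusted p = 0.0498), with adjusted p-values of 0.0447 to 0.179 over these fits, past the threshold in 1 of them. With the replicate number as a block, neither passed (adjusted p = 0.0566 for NAC6 and 0.0859 for SIG6). No nuclear photosynthesis gene among the 38 differed in this way, and groups of 3 arrays were not tested for outliers.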

How the results depend on the processing

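One limit is the number of arrays, 3 per genotype. Over all alternatives, 0 of 38 members passed in scr against WT and in shr against scr. In shr against WT the count was 1 (GAPB) with arrays shifted to a common median, in the fit with a replicate block (adjusted p = 0.0451) and without shr replicate 1, a range of 0 to 1 over the fits without 1 array. Over all loci the block gave 52 calls in scr, 1720 in shr and 236 between the mutants, against 76, 1691 and 279. For shr the numbers were not taken as pairs, since at least 1 of 3 correlations was below 0.1 both with WT and with scr. In scr and WT all correlations (0.277, 0.138 and 0.107) were above 0.1, yet the main fit and paralog tests did not pair these arrays. Between the mutants the NAC6 and SIG6 calls were lost under the block (adjusted p = 0.0566 and 0.0859). Calls over all loci in the 2 genotypes alone were 577 in scr, 807 in shr and 24 between the mutants, and 17 to 595, 654 to 2643 and 33 to 610 with 1 array left out.

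Shifting arrays to a common median lowered medians by construction. In shr against WT they became -0.11 for the 38 members, -0.13 and -0.054 for the antennae of photosystem I and II, -0.072 and -0.09 for photosystem I and II, -0.16 for electron transport and -0.20 for ATP synthase. In shr against scr they became -0.081 for the 38 members, -0.087 and -0.026 for the antennae, -0.071 and -0.072 for the photosystems, -0.087 for electron transport and -0.16 for ATP synthase. It turned 10 of 38 members from above to below 0 in shr against WT, each with a change of at most 0.0552 in size.

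Leaving out 1 array in turn gave medians in shr against WT of -0.061 to -0.027 for the 38 members (-0.027 without shr replicate 3) and -0.075 to -0.029 for the antenna of photosystem I. In scr against WT the range was -0.045 to 0.0043 for photosystem I. In shr against scr it was -0.073 to -0.0038 for the antenna of photosystem I and -0.061 to -0.011 for photosystem I. The other medians and paralog differences moved by less than the spread between replicates. PIF3 in shr against WT had a value of -0.0056, and -0.15 to 0.27 with 1 array left out, turning to 0.27 without shr replicate 3 (adjusted p = 0.143). The cause was not tested.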
